A study of Mus musculus with 12 samples.

Results

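The genes described are 10 WNT/beta-catenin targets of pericentral hepatocytes, the liver cells that border the central vein: Lgr5, Axin2, Rnf43, Nkd1, Tbx3, Glul, Slc1a2, Rhbg, Oat and Lect2. They were chosen by name, with earlier results of these data known, and all 10 were found among the 19012 gene symbols of the deposited tables. Where a symbol had more than 1 transcript, the one with the longest exon length was used. RNA was sequenced from 4 liver tumors (DKO tumors) and 4 livers (DKO livers) of mice with the genotype E2F7/8 DKO, a double knockout, and from 4 wild-type (WT) livers. E2f7 and E2f8 encode repressors of the E2F family, which controls genes of the cell cycle. The DKO tumor and DKO liver of the same number carry 1 animal code in their data names, so every DKO liver came from an animal with a tumor, and WT livers came from other animals. Age, sex, strain, the allele design and any Cre driver are not given in the sources used here. Levels are in RPKM, read counts divided by exon length and by library size. Gene positions are on mm9, with both ends included, as deposited, where counting from 0 or 1 is not stated.

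In the canonical WNT pathway, a WNT ligand bound to Frizzled and LRP receptors stops the destruction complex from degrading beta-catenin, which then enters the nucleus and acts with TCF/LEF factors on target genes. In liver, endothelial cells of the central vein supply WNT ligands and R-spondin, so that the pathway is most active in the hepatocytes next to them, which express glutamine synthetase and lack much of the urea cycle. Activating mutations of beta-catenin are a known cause of liver tumors in humans and mice, and such tumors typically stain for glutamine synthetase.

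Library sizes recovered from the RPKM values were 12702000 to 15956000 reads in DKO tumors, 9274000 to 12323000 in DKO livers and 7985000 to 14234000 in WT livers, and no member gene had fewer than 10 reads in any library. Of 8 hepatocyte markers 7 were found in the tables, none of them was at 0 in any group, and their summed level was 77020 to 134300 RPKM in DKO tumors, 49130 to 117200 in DKO livers and 54090 to 86010 in WT livers. E2f7 was at 0.0365 to 0.259 RPKM in DKO tumors, 0.211 to 0.400 in DKO livers and 0.103 to 0.1997 in WT livers. E2f8 was at 1.66 to 12.2 RPKM in DKO tumors, 2.80 to 20.8 in DKO livers and 1.66 to 4.30 in WT livers. The sources used here do not say which exons were deleted, and the levels are therefore no test of the genotype. Albumin alone took 22.3, 19.4, 12.7 and 11.8% of the reads in DKO tumors 1 to 4, 4.23 to 20.1% in DKO livers and 10.7, 9.12, 6.76 and 11% in WT livers 1 to 4, and its part in the levels below was not tested beyond the rescaling given with them. Data names also carry a tag, L02 for all DKO livers and WT livers 1 and 2, and L03 for all DKO tumors and WT livers 3 and 4, so that tumor and tag cannot be told apart between DKO tumor and DKO liver. Between the tags, the WT livers did not overlap for 3 of the 10 genes, Oat, Rnf43 and Nkd1, each higher in both L03 livers than in both L02 livers. With 2 WT livers per tag this count cannot show an effect of the tag, and the share over all genes was not counted. Over all 12 libraries, 0 of the 10 genes had L02 and L03 libraries that did not overlap. Among the 11351 genes tested, 117 had all L02 libraries above all L03 libraries and 73 had them below. With so few among all genes, the count of 0 cannot show that the tag had no effect on the 10.

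The 4 tumors did not share 1 level of these genes. In DKO tumor 4 all 10 genes were above every WT liver, where 35.6% of the 11351 genes tested were. In DKO tumor 2 this held for 8 of the 10, against 23.5% of all genes, with Oat below every WT liver and Lect2 within their range. In DKO tumor 1 all 10 genes were below every WT liver, where 53.9% of all genes were. In DKO tumor 3 none was above, against 37.7% of all genes, and 4 were below, against 14.5%. DKO tumor 4 had the highest level of the tumors for 9 genes, DKO tumor 1 the lowest for all 10, and the order tumor 4, 2, 3, 1 held for 8. Set against all 8 livers, DKO tumor 4 was above all of them for 10 genes, beside 18.1% of all genes, and DKO tumor 2 for 7, beside 11.2%. DKO tumor 3 lay inside their range for all 10. DKO tumor 1 was below all of them for 8, beside 41.3% of all genes, and for 6 after median-of-ratios scaling or quantile normalization. After median-of-ratios scaling, a rescaling of each library by the median of its gene ratios, the counts against WT livers were again 10 above in tumor 4, 8 above in tumor 2 and 10 below in tumor 1, where 27.8, 28.7 and 26.5% of all genes were. In DKO tumor 3 it put 5 genes below every WT liver, and quantile normalization put 6, beside 25.3 and 26.4% of all genes. With that scaling, and with quantile normalization, DKO tumor 4 was the highest tumor for 7 genes. These rescaled positions were added after the data were seen. In DKO livers 1 to 4, 3, 0, 1 and 0 of the 10 genes were above every WT liver, beside 34.8, 21.1, 54.3 and 18.5% of all genes. Below every WT liver were 3, 7, 4 and 7 of the 10, beside 18.4, 18.9, 7.88 and 34.4%. DKO liver 3 depended most on the scaling, with 7 genes below after median-of-ratios scaling (28.3% of all genes) and 6 after quantile normalization (30.2%), while the other 3 DKO livers kept counts of 3, 7 and 7 under both. Summed Kupffer cell and macrophage markers were at 66.6, 65.8, 210.4 and 47.4 RPKM in DKO tumors 1 to 4, and summed stellate cell and fibroblast markers at 63.9, 58.2, 231 and 51.6, highest in both cases in tumor 3. Their part in the order of the tumors was not tested. In bulk tissue, fewer cells of a type and less RNA per cell cannot be told apart.

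**Figure D1:**
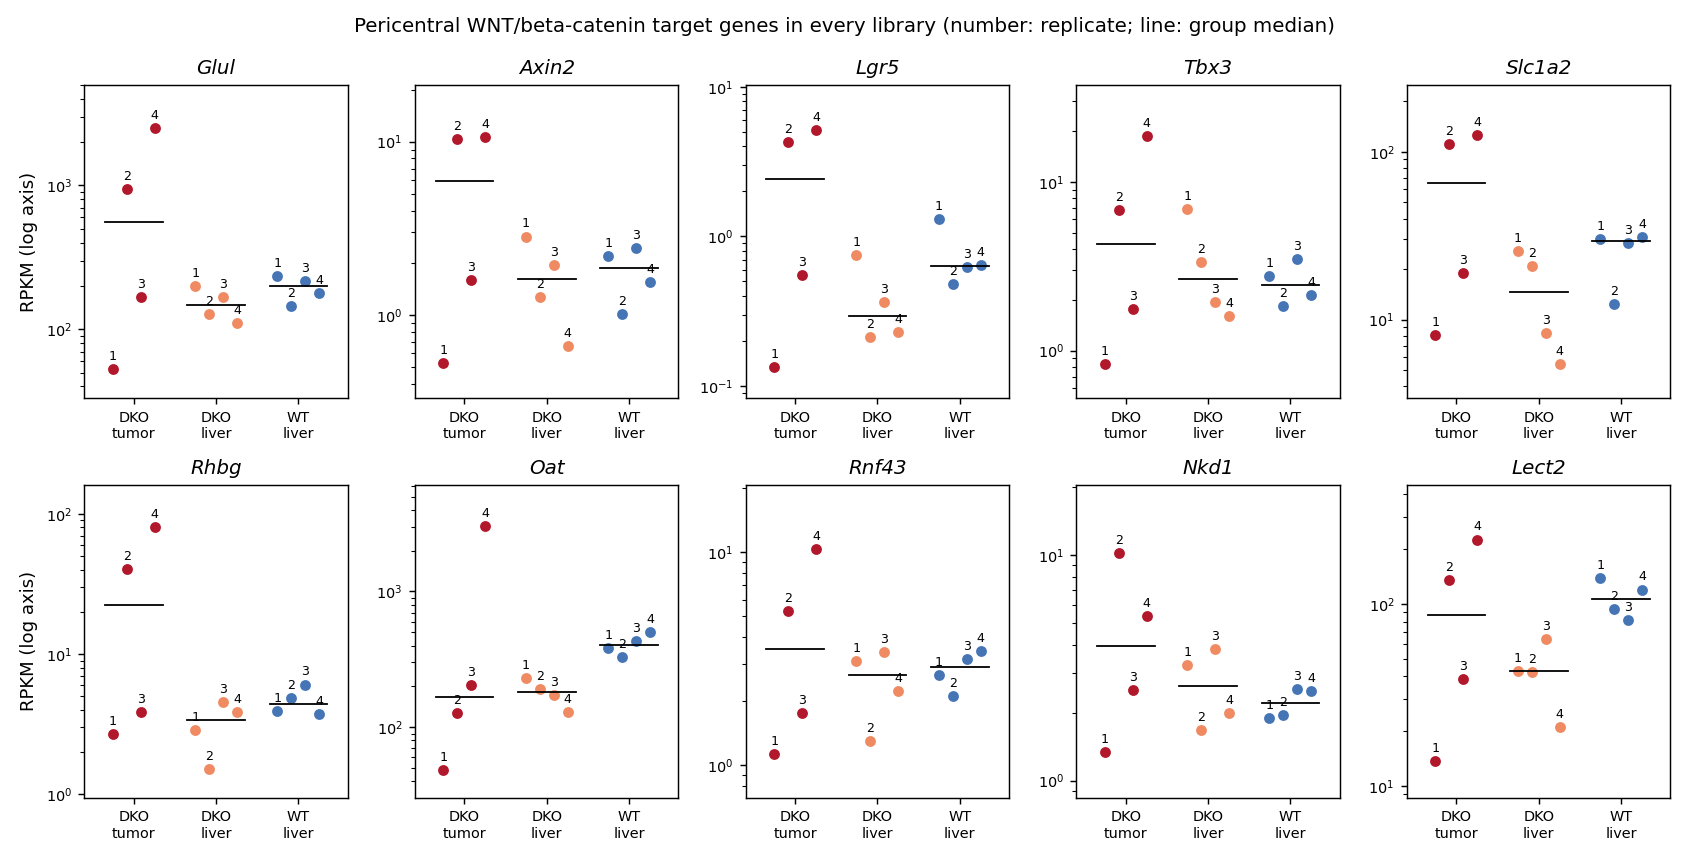
RPKM on a log axis of the 10 genes in every library, with the replicate number beside each point and the group median as a line. DKO tumors 2 and 4 lie above the 8 livers for most genes and DKO tumor 1 at or near the bottom. For Oat and Lect2, only DKO tumor 4 was above the WT livers.

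Lgr5 (chr10:114887369-115024835, minus strand) encodes a receptor for R-spondins, which strengthen WNT signals. It was at 0.133, 4.28, 0.549 and 5.14 RPKM in DKO tumors 1 to 4, at 0.755, 0.212, 0.362 and 0.229 in DKO livers 1 to 4, and at 1.30, 0.481, 0.625 and 0.641 in WT livers 1 to 4. Tumors 2 and 4 were above every liver and tumor 1 was below every liver. These levels rest on few reads, 10 in DKO tumor 1 and 364 in DKO tumor 4.

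Axin2 (chr11:108781662-108812094, plus strand) encodes a scaffold of the destruction complex and is a feedback inhibitor switched on by the pathway itself. Its level was 0.530, 10.3, 1.59 and 10.6 RPKM in the DKO tumors, 2.84, 1.26, 1.94 and 0.658 in the DKO livers, against 2.18, 1.01, 2.43 and 1.55 in the WT livers. Tumors 2 and 4 were nearly equal, at 5.76 and 5.93 times the WT mean, and tumor 3 was inside the range of both liver groups. Rnf43 (chr11:87513398-87549039, plus strand) encodes a ubiquitin ligase that removes Frizzled receptors from the cell surface, again a feedback inhibitor. It was at 1.13, 5.30, 1.75 and 10.4 RPKM in the DKO tumors, 3.09, 1.30, 3.41 and 2.23 in DKO livers 1 to 4, and 2.66, 2.11, 3.14 and 3.45 in the WT livers. The spread was smaller here, with the highest tumor 9.22 times the lowest. Nkd1 (chr8:91045268-91116224, plus strand), whose product binds Dishevelled and dampens the signal, was at 1.34, 10.2, 2.51 and 5.36 RPKM in the DKO tumors, 3.26, 1.67, 3.81 and 1.998 in DKO livers 1 to 4, and 1.89, 1.94, 2.53 and 2.48 in the WT livers. It was the only one of the 10 genes with its highest value in DKO tumor 2.

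Tbx3 (chr5:120120677-120134609, plus strand) encodes a T-box transcription factor and is a known beta-catenin target in liver tumors. It was at 0.839, 6.79, 1.78 and 18.8 RPKM in the DKO tumors, 6.93, 3.35, 1.93 and 1.61 in DKO livers 1 to 4, and 2.79, 1.84, 3.51 and 2.13 in the WT livers. Tumor 2 was above the WT livers but within the range of the DKO livers, in which DKO liver 1 stood at the top.

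The next 4 genes serve glutamine, ammonia and ornithine handling. Glul (chr1:155747074-155756843, plus strand) encodes glutamine synthetase, which joins ammonia to glutamate in the cells around the central vein. Glul was at 53.2, 942, 167 and 2502 RPKM in the DKO tumors, 199.8, 128, 167 and 110.3 in DKO livers 1 to 4, and 235, 144, 218 and 179 in the WT livers. Relative to the WT mean, tumor 4 was 12.9-fold, tumor 2 was 4.86-fold, tumor 3 was 0.862-fold and tumor 1 was 0.274-fold. Slc1a2 (chr2:102498839-102621742, plus strand) encodes a glutamate transporter of the plasma membrane. It was at 8.11, 111, 18.8 and 125 RPKM in the DKO tumors, 25.5, 20.9, 8.34 and 5.45 in DKO livers 1 to 4, and 30.2, 12.4, 28.7 and 31.2 in the WT livers. Tumors 2 and 4 were again close to each other, at 4.33 and 4.88 times the WT mean. Rhbg (chr3:88046795-88058605, minus strand) encodes an ammonia transporter. Its level was 2.69, 40.8, 3.88 and 80.8 RPKM in the DKO tumors, 2.86, 1.51, 4.58 and 3.89 in DKO livers 1 to 4, and 3.93, 4.86, 6.07 and 3.75 in the WT livers. Tumor 4 reached 17.4 times the WT mean, the highest such ratio of the 10 genes, and tumor 2 reached 8.76 times. Oat (chr7:139749157-139768080, minus strand) encodes ornithine aminotransferase, the mitochondrial enzyme that turns ornithine towards glutamate. Oat was at 48.5, 127, 206 and 3056 RPKM in the DKO tumors, 232, 191, 174 and 129.8 in DKO livers 1 to 4, and 381, 331, 432 and 501 in the WT livers. Only tumor 4 was above the WT livers, at 7.43 times their mean, and tumor 2, which was high for Glul, Slc1a2 and Rhbg, was at 0.310 times that mean.

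Lect2 (chr13:56643827-56649860, minus strand) encodes a protein secreted by hepatocytes and is a known beta-catenin target in liver. It was at 13.8, 135, 38.6 and 226 RPKM in the DKO tumors, 43.0, 42.3, 63.8 and 21.0 in DKO livers 1 to 4, and 138, 93.3, 81.7 and 119.9 in the WT livers. Tumor 4 was above every WT liver, tumor 2 was inside their range, and tumors 1 and 3 and all DKO livers were below them.

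**Figure D2:**
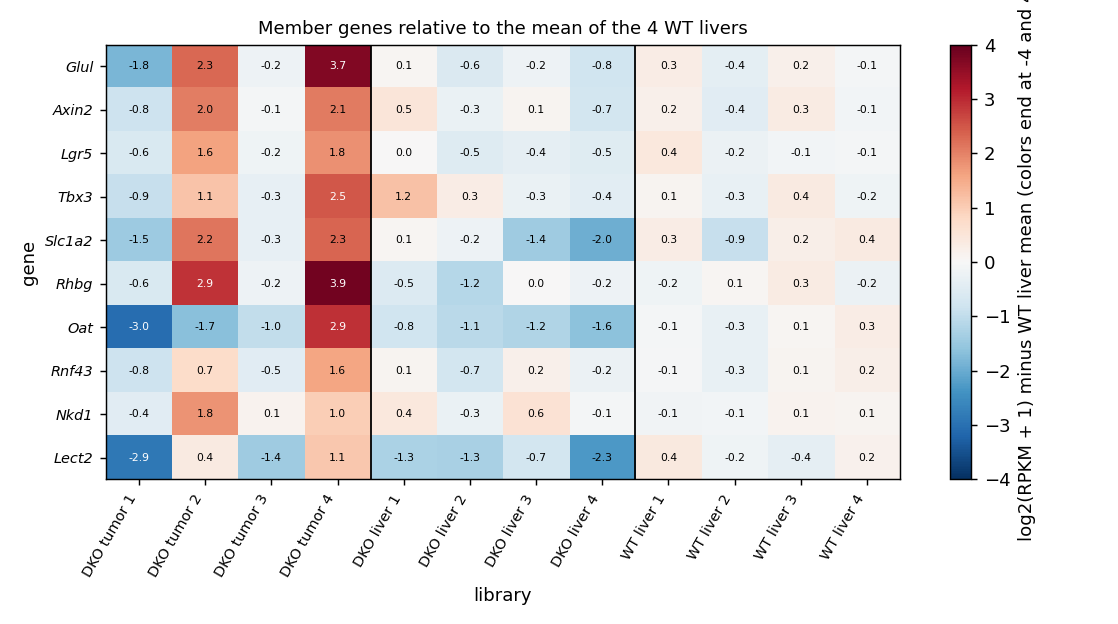
Each gene in each library as log2(RPKM + 1) minus the mean of the 4 WT livers, with DKO tumors left, DKO livers in the middle and WT livers right. Averaged over the 10 genes, the value was -1.35, 1.34, -0.40 and 2.29 in DKO tumors 1 to 4 and -0.88 to -0.03 in the DKO livers.

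The spread between tumors was wide for these genes compared with other genes. On the log2(RPKM + 1) scale the SD over the 4 DKO tumors was 0.99 for Nkd1, the smallest of the 10, and 2.55 for Oat, the largest. The median over the 10 genes was 1.66, beside 0.29 over all 11351 genes tested, and all 10 were among the 5% of genes with the largest SD between tumors. Over the 4 DKO livers the median SD was 0.46 for the 10 genes and 0.28 for all genes, and over the 4 WT livers 0.29 and 0.22, and 1 of the 10, Slc1a2, was in the top 5% in each liver group. The genes were proposed with these data in view, so the ranks are a description. A wide spread between tumors was not particular to them. Among the pericentral and periportal genes given below, Cyp2e1 ranged from 248 to 6821 RPKM over the DKO tumors and Arg1 from 78.5 to 1134. Others spread less, such as Cyp3a11, at 1271 to 2125.

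The promoters of some of these genes are shown because most of the members varied together between tumors. Sequences upstream of the annotated start are from RefSeq on GRCm38.p6, where 7 of the 10 genes had an entry, with 8 windows. Each shows 250 bases before the start, on the strand of the gene, and capitals mark a match to the TCF/LEF motif searched, CTTTGAA or CTTTGAT on either strand. The first 2 are Glul and Axin2, the best known targets (chr1:153899679-153899928, plus strand, and chr11:108920099-108920348, plus strand). The other 2 are the genes with a match, Slc1a2 and Lect2 (chr2:102706188-102706437, plus strand, and chr13:56548539-56548788, minus strand).
Glul: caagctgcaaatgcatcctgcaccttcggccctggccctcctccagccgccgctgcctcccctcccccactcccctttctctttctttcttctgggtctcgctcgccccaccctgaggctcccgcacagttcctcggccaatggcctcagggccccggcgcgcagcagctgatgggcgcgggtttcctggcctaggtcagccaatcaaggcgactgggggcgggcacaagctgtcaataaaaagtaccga
Axin2: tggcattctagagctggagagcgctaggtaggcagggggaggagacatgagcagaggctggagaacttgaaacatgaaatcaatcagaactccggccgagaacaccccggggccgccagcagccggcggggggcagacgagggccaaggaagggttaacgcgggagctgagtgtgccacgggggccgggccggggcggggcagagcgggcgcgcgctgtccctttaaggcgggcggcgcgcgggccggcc
Slc1a2: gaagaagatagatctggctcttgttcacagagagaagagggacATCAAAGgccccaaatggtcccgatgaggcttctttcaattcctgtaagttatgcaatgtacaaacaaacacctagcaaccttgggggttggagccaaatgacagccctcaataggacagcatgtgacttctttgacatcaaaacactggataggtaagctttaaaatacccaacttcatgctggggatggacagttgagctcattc
Lect2: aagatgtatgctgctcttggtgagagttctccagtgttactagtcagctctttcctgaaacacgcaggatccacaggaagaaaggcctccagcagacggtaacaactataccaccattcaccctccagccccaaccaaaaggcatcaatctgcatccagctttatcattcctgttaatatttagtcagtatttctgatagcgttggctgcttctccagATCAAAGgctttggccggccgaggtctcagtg
The motif was found in 2 of the 8 windows of these genes and in 7.48% of 32851 windows of the same length. In Slc1a2 the match begins 207 bases before the annotated start, and in Lect2 it begins 32 bases before it. The windows were not matched to the starts of the transcripts whose levels are given. Slc1a2 has 3 transcripts in the deposited tables, so its window may belong to another one. A match is a description of the letters in this window.

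DKO tumors were compared with WT livers as groups to ask whether the tumors as a whole differ from normal liver. None of the 10 genes passed the limma test, a moderated linear model on log2(RPKM + 1) over 12 libraries with p-values adjusted by Benjamini-Hochberg over all genes at 0.05, in which 1.9% of genes were called. None had an unadjusted p under 0.05 either, where 19.2% of all genes did, and limma's voom fit to recovered reads also called 0. The log2 differences were positive for 8 and negative for 2, with a median of 0.64, beside -0.02 for all genes. The largest was for Rhbg, which averaged 32.0 ± 37.0 RPKM in DKO tumors and 4.65 ± 1.06 in WT livers (SD, n = 4 each; log2 difference 1.496, SE 0.81, limma adjusted p = 0.343). Glul averaged 916 ± 1129 RPKM in DKO tumors and 194 ± 40.6 in WT livers (log2 difference 0.998, limma 95% interval -0.95 to 2.95, adjusted p = 0.60). Both negative differences were for Oat, at -0.69 (adjusted p = 0.746), and Lect2, at -0.71 (adjusted p = 0.628). For all 10 genes the values of the 2 groups overlapped, where 11.9% of all genes did not overlap. Without DKO tumor 4, Oat was called lower (log2 difference -1.89, limma adjusted p = 0.0425, n = 3 tumors) and the Glul difference was 0.10. Without DKO tumor 1 the Glul difference was 1.94.

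**Figure D3:**
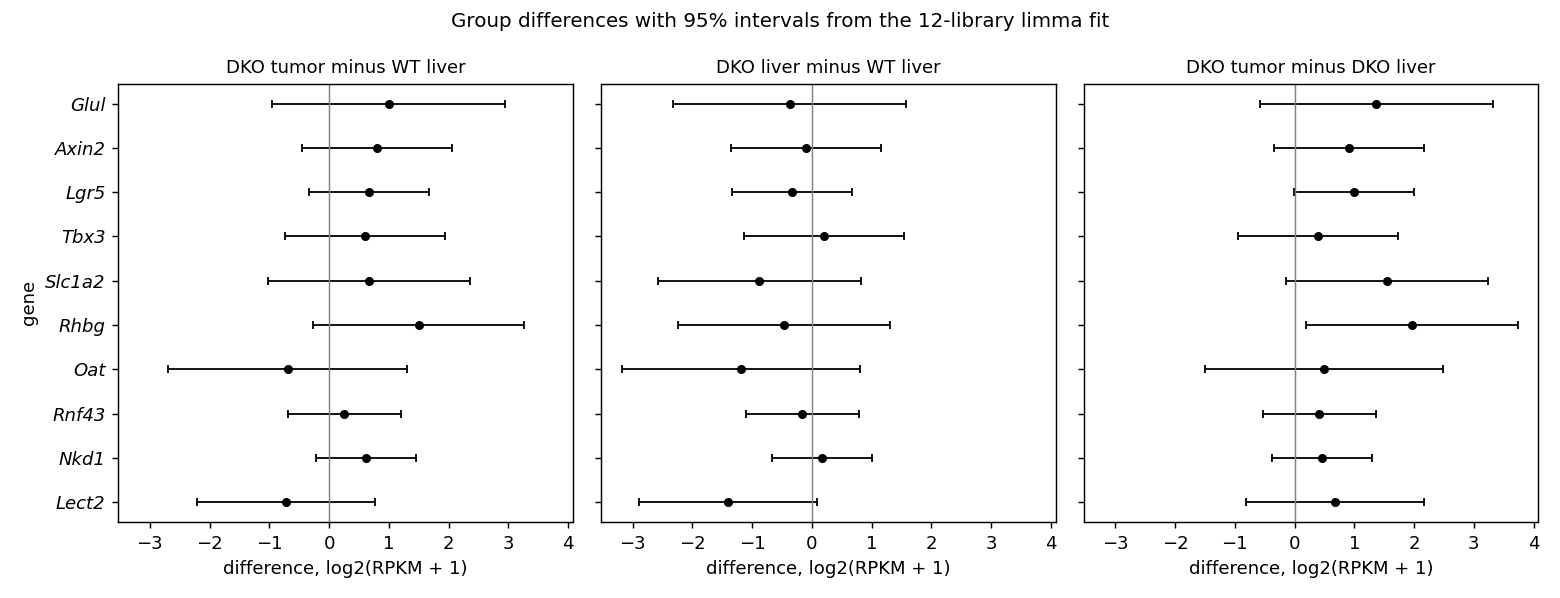
Differences between group means on the log2(RPKM + 1) scale for the 3 comparisons, first-named group minus second, with 95% intervals from the 12-library limma fit. All intervals include 0 except that of Rhbg between DKO tumor and DKO liver, 0.20 to 3.73, whose adjusted p was 0.26.

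DKO tumors were next compared with the DKO livers of the same animals. All 10 log2 differences were positive, with a median of 0.80, beside -0.09 for all genes, and none passed the test, where 0.00881% of all genes did. At an unadjusted p under 0.05 there was 1 of the 10, Rhbg, beside 16.1% of all genes, and the voom fit called 0. Rhbg averaged 32.0 ± 37.0 RPKM in DKO tumors and 3.21 ± 1.34 in DKO livers (n = 4 each; log2 difference 1.97, SE 0.81, limma adjusted p = 0.26). With the animal as a replicate block, limma called 71 genes in place of 1, none of them among the 10, and Rhbg had an adjusted p of 0.287. The groups overlapped for all 10 genes, where 6.2% of all genes did not overlap.

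Animal by animal, the tumor departed from its own liver in both directions. In animal 4 all 10 genes were higher in the tumor, by 1.08 (Nkd1) to 4.55 (Oat) on the log2(RPKM + 1) scale. In animal 2 the difference was positive for 9 genes, up to 4.06 for Rhbg, and -0.58 for Oat. In animal 1 all 10 were negative, from -0.06 for Rhbg to -2.24 for Oat. In animal 3 the differences were small, from -0.71 for Lect2 to 1.09 for Slc1a2, and the Glul difference was 0.01. Oat thus held both the most negative and the most positive difference. Each of these is a single pair of libraries without replicate error, paired by the animal code in the data names. By deviations from the group means over all genes tested, only tumors 2 and 3 were most like the liver of their own number.

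**Figure D4:**
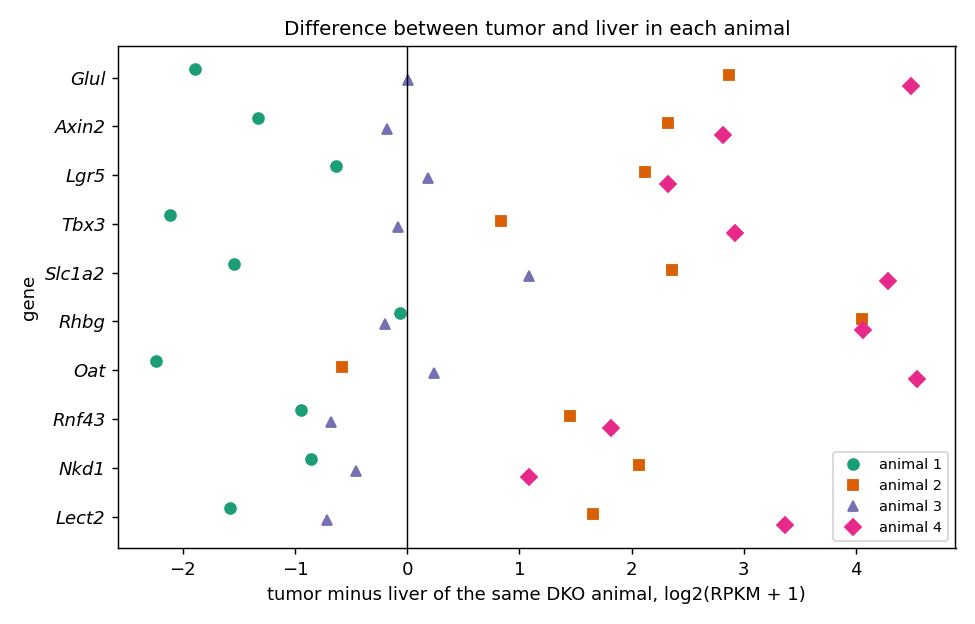
Tumor minus liver of the same DKO animal on the log2(RPKM + 1) scale, 1 symbol per animal. Animal 4 is at the right for most genes, animal 2 is at the right for all but Oat, animal 3 is near 0 and animal 1 is at the left.

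In the DKO livers, set against WT livers, 8 of the 10 log2 differences were negative (median -0.36, beside 0.08 for all genes). None passed the limma test, where 0% of all genes did, none had an unadjusted p under 0.05, where 12.4% of all genes did, and the voom fit called 0. Oat and Lect2 were below every WT liver in all 4 DKO livers. Among all genes, 7.59% did not overlap, and 1.96% did so with DKO livers below. Oat averaged 182 ± 42.3 RPKM in DKO livers and 411 ± 72.5 in WT livers (SD, n = 4 each; log2 difference -1.19, SE 0.92, limma adjusted p = 0.597). Lect2 averaged 42.5 ± 17.5 in DKO livers and 108 ± 25.4 in WT livers (log2 difference -1.40, SE 0.68, adjusted p = 0.426). The SE of the 12-library fit includes the spread between tumors. In limma on the 8 livers alone, the SE was 0.22 for Oat and 0.31 for Lect2, and both adjusted p-values were 0.249. Glul overlapped, at 151 ± 40.0 RPKM in DKO livers and 194 ± 40.6 in WT livers. Among markers of other cells, summed Kupffer cell and macrophage markers (7 of 7 found) were at 163 to 506 RPKM in DKO livers and 93.0 to 249.7 in WT livers, and summed endothelial markers (10 of 10 found) at 71.1 to 104.9 in DKO livers and 44.1 to 69.8 in WT livers. None of these markers was at 0 throughout a group, and their part in the result was not tested.

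Ligands and R-spondins were low throughout, and 4 of 12 passed the filter of at least 0.5 RPKM in at least 4 libraries. None of the 4 passed the limma test in any comparison. Rspo3, an R-spondin of the central vein, was at 0.346, 0.669, 2.17 and 0.198 RPKM in the DKO tumors, 2.39, 1.57, 3.10 and 0.962 in DKO livers 1 to 4, and 2.23, 1.39, 2.32 and 1.46 in the WT livers. Tumors 2 and 4, which had the highest Glul, were below every liver for Rspo3, as was tumor 1. Wnt2, an endothelial ligand named here after its values were seen, was at 0.278, 0.777, 0.690 and 0.0329 RPKM in the DKO tumors, 1.35, 1.87, 0.481 and 0.692 in DKO livers 1 to 4, and 0.927, 1.97, 1.37 and 1.11 in the WT livers. All tumors were below all WT livers (log2 difference -0.71, SE 0.24, limma adjusted p = 0.122). Wnt5a, the fourth ligand tested, lay in the other direction, at 0.660, 1.16, 0.966 and 0.981 RPKM in the DKO tumors, 0.465 to 0.746 in the DKO livers and 0.428 to 0.645 in the WT livers. All tumors were above all WT livers (log2 difference 0.31, SE 0.13, limma adjusted p = 0.217). Wnt5b was at 0.498 to 2.80 RPKM in DKO tumors, 2.501 to 5.09 in DKO livers and 1.51 to 2.69 in WT livers. Summed endothelial markers were at 38.4, 54.6, 87.4 and 64.4 RPKM in DKO tumors 1 to 4. In DKO tumor 4 this sum joins markers that lay in opposite directions. Clec4g was at 1.895 RPKM there and 25.9 to 35.7 in WT livers, and Pecam1 at 23.0 there and 3.17 to 6.99 in WT livers. The part of these markers in the ligand values was not tested.

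Of 10 receptors and co-receptors tested and 18 genes of beta-catenin, the destruction complex and TCF factors tested, 0 passed the test in any comparison, and their median log2 differences between DKO tumors and WT livers were -0.05 and 0.03. Ctnnb1, encoding beta-catenin, was at 67.5, 112, 94.3 and 111 RPKM in the DKO tumors, 82.0, 81.1, 95.7 and 74.7 in DKO livers 1 to 4, and 60.8, 72.3, 72.7 and 70.9 in the WT livers. Tumors 2 and 4 were above every liver (log2 difference of the group 0.44, SE 0.19, limma adjusted p = 0.214). Csnk1a1, a kinase of the destruction complex, was at 28.2 to 41.3 RPKM in DKO tumors, 33.6 to 44.5 in DKO livers and 38.6 to 46.4 in WT livers. The co-receptor gene Lrp5 was at 30.7 RPKM in DKO tumor 4 and 12.95 to 20.4 in the other tumors, against 15.1 to 20.1 in DKO livers and 9.44 to 16.8 in WT livers. Lrp6 was at 9.43 to 12.95 RPKM in DKO tumors, 10.3 to 15.02 in DKO livers and 8.58 to 13.8 in WT livers. Tcf7, a TCF factor that is itself a WNT target and was picked after its values were seen, was at 2.28, 7.51, 2.42 and 11.2 RPKM in the DKO tumors, 1.41 to 4.36 in DKO livers and 1.72 to 3.33 in WT livers.

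Among 16 WNT inhibitors 6 were tested, and 0 passed in any comparison. Notum, an enzyme that inactivates WNT ligands, was at 2.47, 39.9, 6.53 and 30.3 RPKM in the DKO tumors, 14.7, 10.8, 10.7 and 6.62 in DKO livers 1 to 4, and 27.0, 13.3, 10.8 and 14.7 in the WT livers. Before rescaling, it followed the members in part, with tumors 2 and 4 above every liver and tumor 1 below every liver. The margin of tumor 4 was small, at 30.3 RPKM against 27.0 in WT liver 1. Unlike most members, Notum was highest in tumor 2. Tumor 3 was also just below every liver, at 6.53 RPKM against 6.62 in DKO liver 4. Znrf3, the partner of Rnf43 and also picked after its values were seen, was at 0.874, 2.395, 1.01 and 3.501 RPKM in the DKO tumors, 0.695 to 1.83 in the DKO livers and 1.11 to 1.52 in the WT livers. Of 10 other WNT targets 9 were tested and 0 passed. Ccnd1, the gene of cyclin D1, did not set tumors 2 and 4 apart, with 16.6, 43.9, 52.3 and 49.4 RPKM in the DKO tumors, 6.23 to 76.8 in DKO livers and 14.4 to 48.2 in WT livers. Jun was at 3.64, 7.98, 10.3 and 8.603 RPKM in the DKO tumors, 4.77 to 16.4 in DKO livers and 2.93 to 5.54 in WT livers. Tnfrsf19, a receptor gene picked after its values were seen, was at 1.21, 11.3, 3.49 and 13.1 RPKM in the DKO tumors, 0.745 to 3.29 in DKO livers and 1.10 to 3.32 in WT livers.

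Other pericentral genes followed the members in part. In DKO tumor 4, 14 of 20 were above every WT liver and 5 below, beside 35.6 and 20.2% of all genes, and in DKO tumor 1, 18 were below, beside 53.9%. In DKO tumor 2, which was high for 8 members, 4 of the 20 were above and 11 below, beside 23.5 and 32.6% of all genes. In DKO tumor 3 the counts were 4 and 11, beside 37.7 and 14.5%. After median-of-ratios scaling, 12 were above and 5 below in tumor 4, beside 27.8 and 26.0% of all genes. Tumors 1, 2 and 3 then had 15, 10 and 12 below, beside 26.5, 27.8 and 25.3%. After quantile normalization, 14 were above and 5 below in tumor 4, beside 27.0 and 27.1%. Tumors 1, 2 and 3 then had 15, 8 and 9 below, beside 28.1, 28.4 and 26.4%. Cyp2e1, a P450 enzyme of pericentral cells, was at 248, 2878, 1716 and 6821 RPKM in the DKO tumors, 3314, 2527, 2175 and 588 in DKO livers 1 to 4, and 6677, 4096, 4482 and 5729 in the WT livers. DKO tumor 2 was thus below every WT liver for Cyp2e1 although it was above them for Glul, Axin2 and Lgr5. Cyp3a11 was at 1271 to 2125 RPKM in DKO tumors, 241 to 1434 in DKO livers and 1584 to 2110 in WT livers. Against WT livers, 1 of the 20 fell in DKO tumors, Cyp2c54 (36.3 against 184 RPKM; log2 difference -2.46, SE 0.52, limma adjusted p = 0.0353), a P450 gene whose reads can be shared with close relatives. With the name tag as a covariate it was not called, with nearly the same difference and a larger error (log2 difference -2.44, SE 0.67, limma adjusted p = 0.269). The median over the 20 was -0.54 in DKO tumors against WT livers and -0.79 in DKO livers against WT livers, where all 20 were negative, 6 did not overlap, all with DKO livers below as for 1.96% of all genes, and 0 passed the test. Between DKO tumors and DKO livers the median was 0.13 and 0 passed.

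Periportal genes, expressed at the opposite end of the lobule, were mostly below the WT livers in DKO tumors 2 and 4. In DKO tumor 4, 17 of 20 were below every WT liver, in DKO tumor 2, 15, in DKO tumor 1, 12, and in DKO tumor 3, 2. The shares of all genes below every WT liver in these libraries were 20.2, 32.6, 53.9 and 14.5%. Before rescaling, the count in DKO tumor 1 was thus close to the share of all genes. After median-of-ratios scaling it was 9 below and 4 above, beside 26.5 and 27.3% of all genes. After quantile normalization it was 5 below and 5 above, beside 28.1 and 26.3%. In DKO tumors 4 and 2 the count below stayed at 17 and at 14 or 15, beside 26.0 to 28.4% of all genes. Arg1, the arginase of the urea cycle, was at 953, 534, 1134 and 78.5 RPKM in the DKO tumors, 955 to 1398 in DKO livers and 1005 to 1288 in WT livers. Gls2, the liver glutaminase, picked after its values were seen, was at 87.5, 75.2, 143 and 6.90 RPKM in the DKO tumors, 118 to 226 in DKO livers and 124 to 179.8 in WT livers. As a group against WT livers, 2 periportal genes rose and 1 fell in DKO tumors, and the median of the 20 was -0.995. Cdh1, the gene of E-cadherin, rose to 32.4 RPKM in DKO tumors against 4.26 in WT livers (log2 difference 2.71, SE 0.44, limma adjusted p = 0.0178), and the apolipoprotein gene Apoa4 rose to 1684 against 249 (2.46, SE 0.48, adjusted p = 0.0264). Slc7a2, a carrier of basic amino acids, fell to 32.4 in DKO tumors against 78.7 in WT livers (-1.31, SE 0.30, adjusted p = 0.0433). All 3 calls were lost with the name tag as a covariate (limma adjusted p of 0.173 for Cdh1, 0.235 for Apoa4 and 0.234 for Slc7a2), with log2 differences of 2.62, 2.38 and -1.46. Within tag L03, with WT livers 3 and 4 alone, limma called Cdh1 (adjusted p = 0.0246) but not Apoa4 (0.295) or Slc7a2 (0.21). Cdh1 and Apoa4 were above every WT liver in each of the 4 tumors, whatever the level of the members. Against DKO livers the periportal median was -1.26, and in DKO livers against WT livers it was 0.28, with 0 calls in both.

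**Figure D5:**
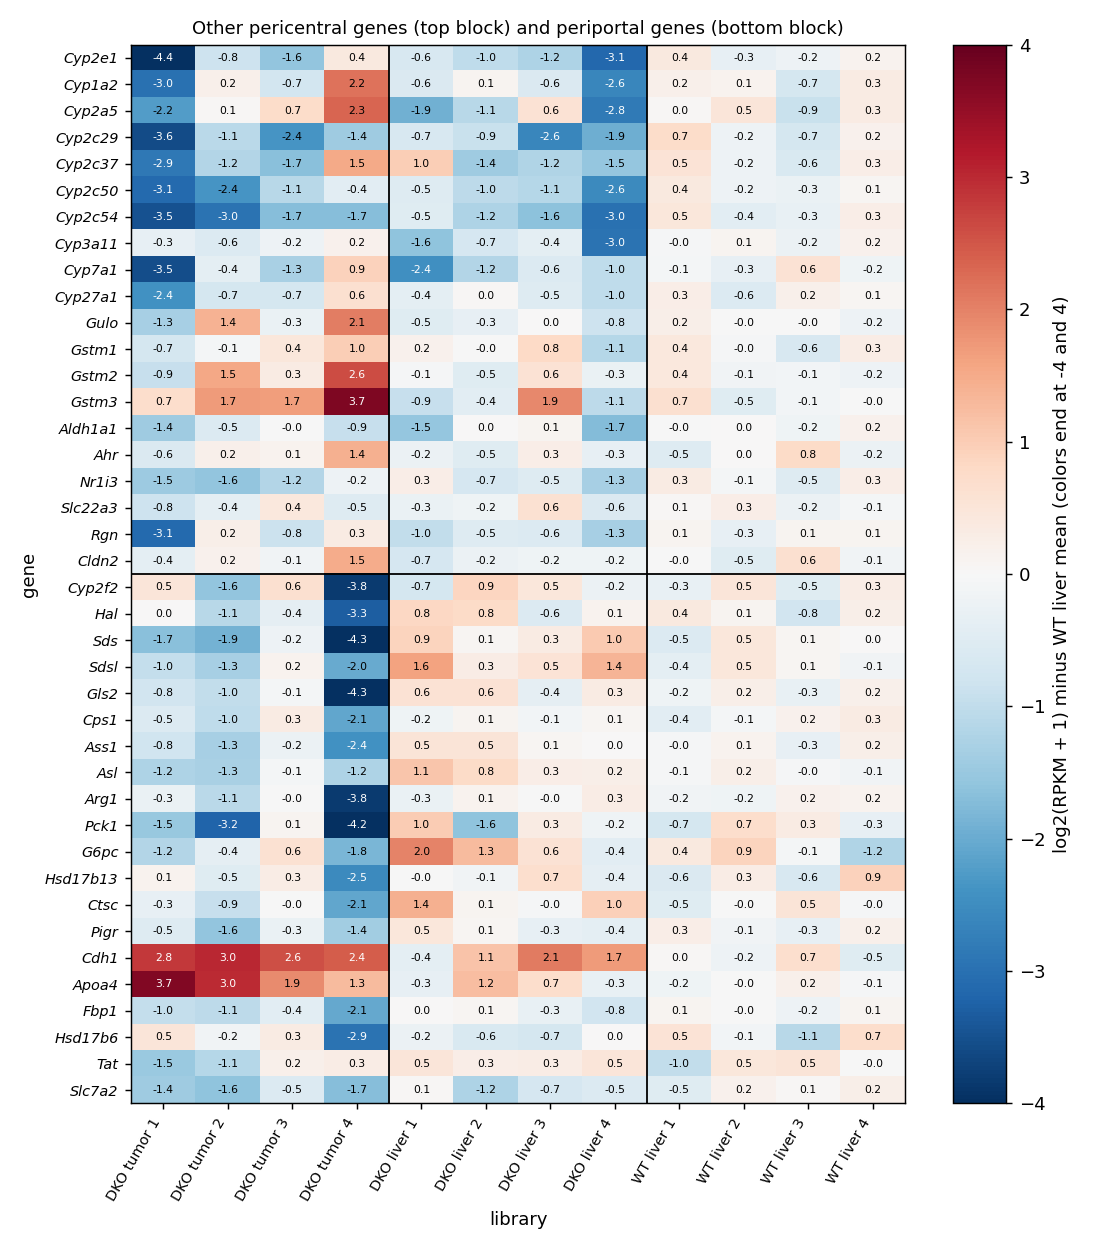
Other pericentral genes (top block) and periportal genes (bottom block) as log2(RPKM + 1) minus the mean of the 4 WT livers in each library. Before rescaling, DKO tumor 4 has 14 of 20 pericentral genes above and 17 of 20 periportal genes below every WT liver. DKO tumor 1 has 18 of 20 pericentral genes below before rescaling.

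The genes with patterns most like Glul and Axin2 over the 12 libraries were ranked among 11350 other genes by Pearson's r of log2(RPKM + 1), as a description, since the points share their libraries and a few tumors set the range. Nearest to Glul were Gulo (r = 0.97), the vitamin C synthesis gene, Lgr5 (0.96), Gstm2 (0.96), a glutathione S-transferase with close relatives that can share reads, Axin2 (0.96) and Ctse (0.94), which encodes cathepsin E. Gulo was at 124, 818, 259 and 1295 RPKM in the DKO tumors, 175 to 317 in the DKO livers and 270.4 to 366 in the WT livers. Nearest to Axin2 were Glul (0.96), Lgr5 (0.96), the gene listed as B930041F14Rik, now Fndc10 (0.95), the phosphomannomutase gene Pmm1 (0.95), and the gene listed as 4432416J03Rik, now Nxpe2 (0.94). The last was at 2.75, 26.9, 4.26 and 36.0 RPKM in the DKO tumors, 1.95 to 5.78 in the DKO livers and 4.19 to 8.49 in the WT livers. Of the other 8 members the least like Glul was Oat (r = 0.71), followed by Lect2 (0.79) and Nkd1 (0.81).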

How the data were processed

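RPKM was measured by RNA sequencing of polyadenylated RNA with a SOLiD library kit, per the labels, in 4 DKO tumors, 4 DKO livers and 4 WT livers. Each library has a deposited table of RPKM values for 21247 RefSeq transcripts, per the file headers. BWA and mm9 are named in the submitters' processing notes without a version, and no source used here gives the counting step. Multiplied by exon length, 100% of values under 10000 reads came out whole within 0.05 of a read, which gave library sizes and read counts. With no molecular identifiers, read numbers speak to counting error alone.

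The test covered 11351 genes that reached 0.5 RPKM in 4 or more libraries, all 10 members among them. limma 3.58.1 in R 4.3.3 fitted log2(RPKM + 1) with a mean per group, an intensity trend and robust shrinkage, two-sided. The offset of 1 understates changes of low genes. Positions of single libraries against the 4 WT livers have no test. The fit was tested on simulated data. The members and lists were chosen with earlier results of these data known. Named genes were all members, those of each list that passed (at most 4), otherwise its 2 with the highest mean, and the 5 most like Glul and Axin2. Of 8 hepatocyte markers Tf was not matched. Older names were matched through RefSeq accessions (18507 of 19012 symbols). Animal codes in the data names differ between the libraries of a group.

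DKO tumor and DKO liver of the same number share an animal code and were taken as pairs. The correlation of their deviations from the group means was 0.117, 0.347, 0.368 and 0.003 for animals 1 to 4. By this measure the DKO livers most like DKO tumors 1 to 4 were livers 4, 2, 3 and 1. The pairs of animals 1 and 4 thus rest on the animal codes alone. WT livers share only a number with the DKO libraries. Python 3.11.15, numpy 2.4.6, pandas 2.3.3 and matplotlib 3.10.9 were used. Alternatives covered offset, filter, scaling, variance model, name tag, replicate block, voom, transcript choice and left-out libraries.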

Additional observations from a re-analysis of the deposited data

Results flagged for a closer look

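Slc1a2 was at 12.4 RPKM in WT liver 2, while the other WT livers were at 28.7 to 31.2. The gap to the nearest of them took 0.908 of the range of the 4 libraries on the log2(RPKM + 1) scale, above Dixon's critical value for 4 samples. It was the only such library in 30 groups of 4 (10 genes in 3 groups), and chance gives about 1 in 20 groups. WT liver 2 was also the lowest WT liver for Glul, Axin2, Lgr5, Tbx3, Oat and Rnf43.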

How the results depend on the processing

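The count of member genes called stayed at 0 in every comparison and alternative, except that it was 0 to 1 for DKO tumor against WT liver when 1 library was left out. For all genes, DKO tumor against WT liver gave 216 calls, and 112 with no filter, 598 with median-of-ratios scaling, 478 with quantile normalization, 3 with the name tag as a covariate, 25 within tag L03, 128 with a replicate block, 10 without DKO animals 1 and 2, and 16 to 413 with 1 library left out (37 without DKO tumor 1, 20 without 2 and 413 without 3; 21 without WT liver 1, 83 without 2 and 16 without 4). DKO liver against WT liver gave 0 calls, and 1 with median-of-ratios scaling, on its 8 libraries alone or without DKO animals 1 and 2, and 0 to 2 with 1 library left out (2 without DKO liver 4, and 1 without DKO tumor 3, DKO liver 1 or WT liver 1, 2 or 3). DKO tumor against DKO liver gave 1 call, and 24 with quantile normalization, 55 on its 8 libraries, 0 with the name tag, 71 with the replicate block of animals, 0 without DKO animals 1 and 2, and 1 to 363 with 1 library left out (363 without DKO tumor 3, 31 without WT liver 3, 20 without DKO liver 3, 3 without WT liver 1, and 2 without WT liver 2 or 4). The replicate block changed no call of a member, and for groups that share only a number it is given for completeness. Of the values of single members under alternatives, 720 kept direction and side of the threshold, 1 passed it (Oat without DKO tumor 4, -1.89) and 16 reversed, none of them called.

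For DKO tumor against WT liver, Oat was 0.97 without DKO animals 1 and 2, and the ranges with 1 library left out were -1.89 to 0.089 for Oat, -0.041 to 1.10 for Tbx3 and -0.19 to 0.62 for Rnf43. For DKO liver against WT liver, Axin2 was 0.015 with the name tag and within L02, Rnf43 was 0.013 in both, and Tbx3 was -0.34 without DKO animals 1 and 2, while the ranges with 1 library left out were -0.295 to 0.108, -0.285 to 0.027 and -0.125 to 0.409. For DKO tumor against DKO liver these ranges were -0.24 to 0.90 for Tbx3, -0.71 to 1.28 for Oat and -0.032 to 0.775 for Rnf43. The cause was not tested. The 4 called list genes kept their direction in all alternatives, added after seeing the data, and, counted over genes and alternatives, lost the call in 36 cases and held it in 64. Under median-of-ratios scaling and quantile normalization, DKO tumor 4 was highest of the tumors for 7 and 7 members and DKO tumor 1 lowest for 9 and 8. Levels of Lgr5 rest on as few as 10 reads.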

Other observations

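In animal 3, a pair of WNT inhibitor genes was high in both tumor and liver. The WNT inhibitor gene listed as Tmem46, now Shisa2, was at 1.88 RPKM in DKO tumor 3 and 3.12 in DKO liver 3, and at most 0.639 in the other 10 libraries. Frzb, which encodes a secreted WNT inhibitor, was at 2.20 RPKM in DKO tumor 3 and 4.11 in DKO liver 3, and at most 0.878 in the others. Spp1, which encodes the secreted protein osteopontin, was at 103 and 154 RPKM in the same pair of libraries and at most 39.9 elsewhere. It makes up most of the summed cholangiocyte markers there, 118 and 166 RPKM. Krt19 was at 4.69 RPKM in DKO tumor 3 and 2.96 in DKO liver 3, and the gene listed as Tacstd1, now Epcam, at 7.02 and 3.58. Both were highest of the 12 libraries in DKO tumor 3. Krt7 was at 0.622 and 2.01, highest in DKO liver 3. Sox9 was at 2.595 and 3.70, and highest in DKO tumor 1, at 3.85. Cftr was at most 0.120 RPKM in any library. Summed Kupffer cell and macrophage markers and summed endothelial markers were highest in DKO liver 1, at 506 and 104.9 RPKM. These genes were chosen after their values were seen.

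Sfrp2, a secreted inhibitor of WNT ligands, followed the tag in the data names. Among libraries tagged L03 it was at 0.156, 0.157, 0 and 0.266 RPKM in DKO tumors 1 to 4 and at 0.0840 and 0 in WT livers 3 and 4. Among libraries tagged L02 it was at 5.95, 4.43, 6.69 and 3.45 in DKO livers 1 to 4 and at 4.25 and 5.62 in WT livers 1 and 2. Of the 11351 genes tested, 117 had every L02 library above every L03 library and 73 the opposite.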
